A study of Mus musculus with 8 samples.

Results

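Focal adhesions are the sites at which integrins tie the extracellular matrix to the actin cytoskeleton. Talin and kindlin bind the cytoplasmic tails of integrins, vinculin and α-actinin join this layer to actin filaments, and kinases and LIM-domain adaptors assemble on the same plaque and pass on signals. Formins, the Arp2/3 complex and Ena/VASP proteins build filaments, the gelsolin family caps and severs them, and ezrin, radixin and moesin fasten them to the plasma membrane. During an epithelial-mesenchymal transition (EMT), epithelial cells trade cortical actin for stress fibers and larger adhesions.

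The genes described here encode such proteins. They were chosen as 52 gene symbols by the function of their proteins, with earlier results of these data known, and a member counts as measured where a probe set of the array carries its symbol and no other. This held for 51 of the 52, out of 19937 genes that could be named in this way. Ptk2, which encodes focal adhesion kinase, was not analysed here. The members were placed in classes by the function of their proteins: 12 integrin-actin linkers, 8 adhesion kinases and adaptors, 7 cross-linkers and myosins, 6 actin-associated LIM proteins, 9 genes of filament nucleation and elongation, 6 of filament turnover with the gelsolin family, and 3 membrane linkers. For 4 members with several probe sets (Lpp, Myh9, Pdlim1 and Tns1), values are those of the brightest one, by its mean over all arrays.

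RNA came from NMuMG cells, an untransformed epithelial line from the mouse mammary gland that undergoes EMT under TGFβ. The study used 1 subclone of it. Cells were transfected with a control siRNA (siControl) or with a pool of siRNAs against the transcription factor Klf4 (siKlf4), and each was kept without TGFβ or received TGFβ at 2 ng/ml for 2 days. Each of these 4 groups has 2 Affymetrix arrays, all from transfected cells, so that no group shows cells without siRNA. Values are log2 values from Robust Multi-Array (RMA) normalization. Groups were compared with limma, with standard errors from the spread of all 8 arrays, and calls were made at a Benjamini-Hochberg adjusted p under 0.05 over the 19937 genes. The sources used here do not tell whether replicate arrays stand for separate transfections, and the p-values then cover only array-to-array spread, possibly a technical one.

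Replicate arrays correlated with an r of 0.992 to 0.995 over probe sets. Klf4 itself was lower in the arrays labelled siKlf4 without TGFβ (log2 difference −0.54, adjusted p = 0.00369), while with TGFβ the difference was −0.13 (adjusted p = 0.444) and did not pass the test. Its values were 8.60 and 8.43 in siControl, 8.03 and 7.91 in siKlf4, and with TGFβ 7.46 and 7.46 in siControl and 7.43 and 7.24 in siKlf4. With TGFβ against none, Klf4 was lower by −1.05 in siControl (adjusted p = 3.6e-04) and −0.63 in siKlf4 (adjusted p = 0.00295). The groups are named by their labels. All siKlf4 arrays come from the same pool of siRNAs, so that loss of Klf4 and other effects of these siRNAs cannot be told apart. Smad7, an inhibitory gene of the TGFβ pathway, was lower in the TGFβ arrays of siControl by a log2 difference of −0.44 (adjusted p = 0.0169), a call that was lost without siControl replicate 1 (adjusted p = 0.0892) or without siControl with TGFβ replicate 1 (0.137) or 2 (0.0524). In siKlf4 its TGFβ difference was 0.13 (adjusted p = 0.514), and siKlf4 exceeded siControl by 1.44 without TGFβ (adjusted p = 1.1e-05) and 2.00 with it (adjusted p = 1.1e-06). Of the epithelial markers, Krt8, Krt18, Krt19 and Cdh1 were at or above the 97.5th percentile of all genes in mean log2 value, and Epcam and Cldn7 were dim, at percentiles 26.0 and 33.9. With siKlf4, Krt19 was lower by −0.99 and −1.04 without and with TGFβ, Krt8 was higher by 0.30 and 0.36 and Krt18 by 0.54 and 0.55, and the other 3 passed neither test. Of 20 markers of immune, endothelial, fibroblast, muscle and fat cells, 16 were below the 50th percentile. Arrays give no value of 0, so that none of these markers can be called absent.

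In the absence of TGFβ, most members were higher in the arrays labelled siKlf4, though not most of every class. Of the 51 members, 32 were called higher, 2 were called lower and 17 did not pass the test. Over all genes tested, 9.98% were called higher and 9.71% lower. The median log2 difference was 0.55 over the members and 0.00 over all genes. In the presence of TGFβ, 32 members were higher, 3 lower and 16 not called, beside 12.3% of all genes higher and 11.9% lower, with a median of 0.49 over the members and −0.03 over all genes. Both siKlf4 arrays lay above both siControl arrays for 40 members without TGFβ and 41 with it, where 24.7% and 27.5% of all genes did so, and below both for 3 and 6 members, where 24.4% and 34.9% of all genes did. Because RNA was taken from whole cultures, fewer cells of a type and less RNA per cell cannot be told apart.

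Most members are bright: 46 of the 51 were above the 50th percentile of mean log2 value, and bright genes were called more often. Among the 9969 genes left when the dimmest 50% were removed, an alternative chosen after seeing the data, 22.4% were higher and 22.3% lower without TGFβ, and 35 members were higher and 2 lower. With TGFβ, the shares were 27.3% and 24.3% of genes, and 34 members were higher and 3 lower. Of the 20 markers of other cell types, 3 (Csf1r, Col1a1 and Acta1) were higher in siKlf4 without TGFβ and 4 (these and Cd68) with it. The summed linear level of the 20 was 668 to 691 in siControl, 1035 to 1085 in siKlf4, 627 to 650 in siControl with TGFβ and 1243 to 1318 in siKlf4 with TGFβ. Without Acta1, which encodes the actin of skeletal muscle, the ranges were 576 to 603, 751 to 761, 516 to 548 and 663 to 675. The part of other cell types in the members' differences was not tested.

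**Figure D1:**
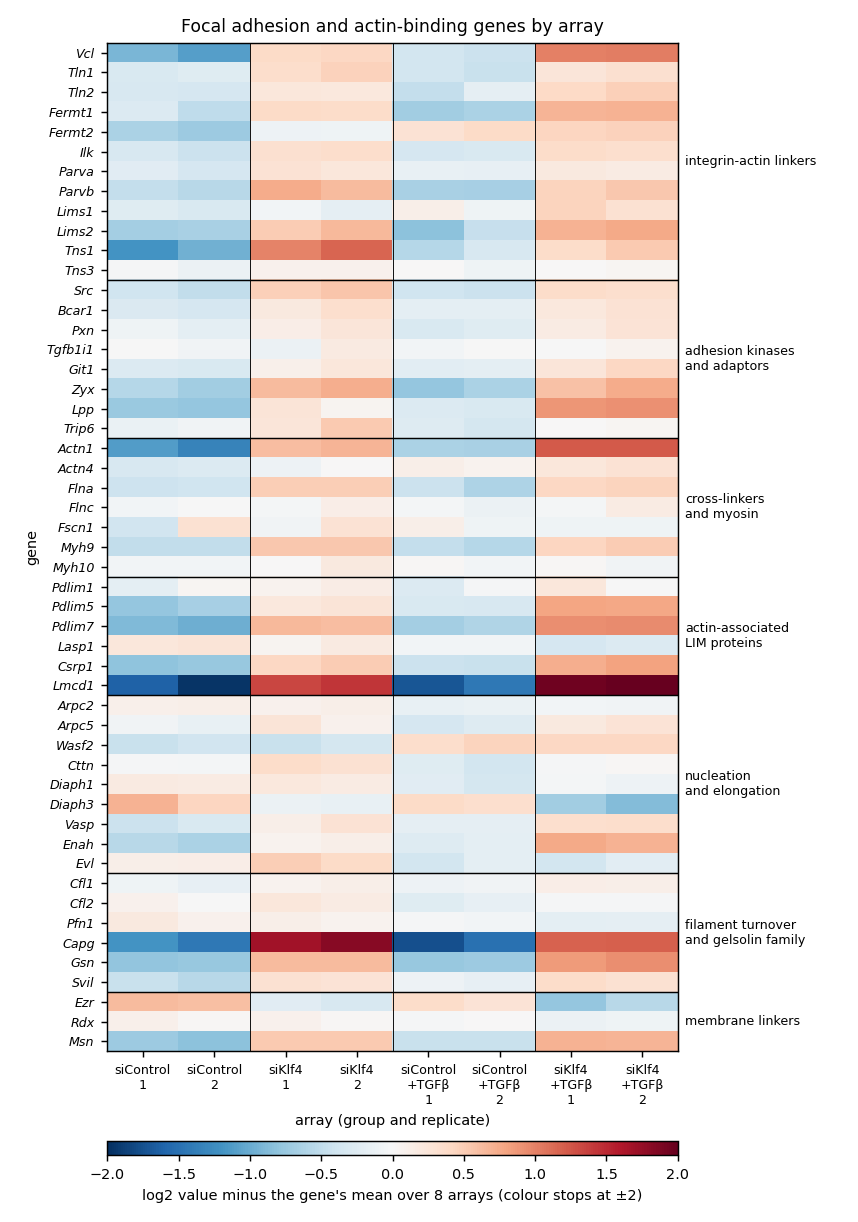
Heat map of the 51 members (rows, by class) in the 8 arrays (columns), as the log2 value minus the gene's mean over the 8 arrays, with colours stopping at 2 in either direction. Most rows are blue in the 4 siControl arrays and red in the 4 siKlf4 arrays, with Lmcd1 and Capg the darkest, while Ezr and Diaph3 run the other way.

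The siKlf4 comparisons without and with TGFβ use different arrays, which were normalized together. 30 members were higher in both and 2, Diaph3 and Ezr, were lower in both. Fermt2 and Evl were called higher without TGFβ alone, Lims1 and Arpc5 with TGFβ alone, and Lasp1 lower with TGFβ alone, which does not show that the effect differed. The remaining 14 were called in neither. The share of all genes called in both comparisons is not given here, so that these joint counts describe the members only. The 2 log2 differences of a member were within 0.2 of each other for 34 of the 51. Across the 51 members, which are not independent replicates, the Pearson correlation of these differences was 0.945, given as a description. Neither value is given here for all genes, so that both describe the members only. A one-way test was also made over the 4 groups, the kind the study's methods name. The share of bright genes passing this test is not given here. It called 44 members, beside 25.2% of all genes. It called 29 without siKlf4 with TGFβ replicate 1 and 27 without replicate 2.

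The counts by class were the same without and with TGFβ for most classes. Of the integrin-actin linkers 10 of 12 were higher, with median log2 differences of 0.70 and 0.72. Of the adhesion kinases and adaptors it was 7 of 8, with medians of 0.54 and 0.51. Together these plaque classes had 17 of 20 higher and none lower. Fewer were higher among the cross-linkers and myosins (3 of 7, medians 0.25 and 0.17), the nucleation and elongation genes (4 of 9 with 1 lower, 0.28 and 0.22), the turnover genes (3 of 6, 0.51 and 0.34) and the membrane linkers (1 of 3 with 1 lower, −0.01 and −0.10). The LIM proteins had 4 of 6 higher and the highest median of any class, 1.09 and 1.14, with 1 lower when TGFβ was present. Over all genes, 9.98% were higher without TGFβ and 12.3% with it, and among the brighter genes described above 22.4% and 27.3%. The cross-linkers and myosins include the dim genes Flnc, Fscn1 and Myh10, at percentiles 34.7, 46.7 and 31.6. Tgfb1i1 among the adaptors (31.1) and Pdlim1 among the LIM proteins (26.9) were also dim. None of these dim genes was called in either siKlf4 comparison. Their part in the class counts and medians was not tested, nor were differences between classes.

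**Figure D2:**
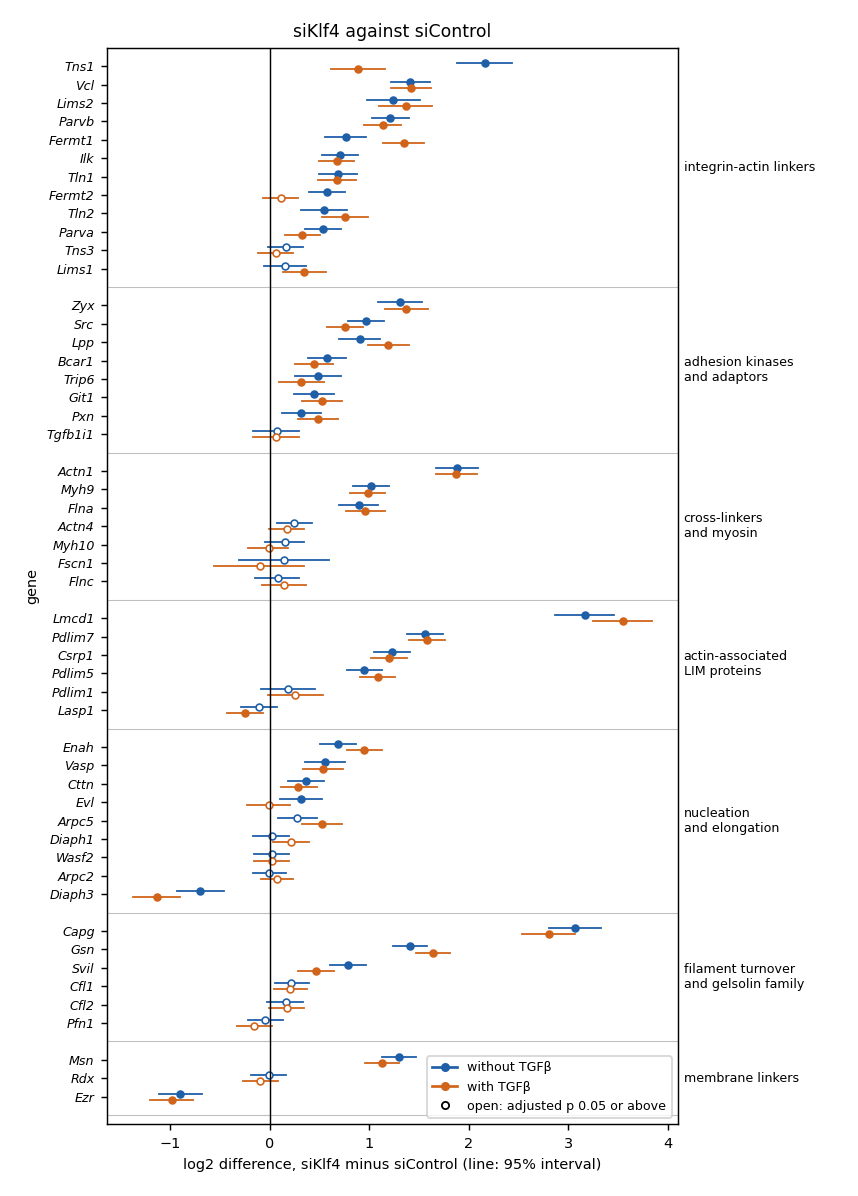
Log2 difference of siKlf4 minus siControl for the 51 members by class, without TGFβ (blue) and with TGFβ (orange). Points are limma estimates from 2 arrays a group, lines are 95% intervals, and open points did not pass an adjusted p of 0.05. The points of plaque genes lie to the right of 0, Lmcd1 and Capg lie farthest right, and Diaph3 and Ezr lie left of 0 in both comparisons.

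For 43 of the 51 measured members, RefSeq promoters were given here (build GRCm38.p6, 250 bases before to 50 after the start, 56 promoters in all). The CArG box, the site of serum response factor (SRF), is long known in genes of the contractile cytoskeleton. It was found in the promoters of 4 members, 9.3% of the 43, and of 254 of the 15613 tested genes with a promoter, 1.63%. The box of Krüppel-like factors, searched as CACCC or its reverse complement GGGTG, was found for 34 members (79.1%) and for 63.5% of the tested genes. Both motifs were searched on both strands, and a CArG box can share its end letters with a box of Krüppel-like factors. A match is a description of the letters and not evidence of binding. The 3 windows printed here are from members whose values are given in full. They run 5′ to 3′ in the direction of the gene, from position −250 to −151 relative to its start, with the CArG box in capitals. Relative to the start, the box begins at −227 in Vcl, at −215 in Lmcd1 and at −204 in Fermt2.
Vcl, chr14:20929148-20929247, plus strand: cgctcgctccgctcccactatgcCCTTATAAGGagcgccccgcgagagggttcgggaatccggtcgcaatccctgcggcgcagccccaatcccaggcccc
Lmcd1, chr6:112273508-112273607, plus strand: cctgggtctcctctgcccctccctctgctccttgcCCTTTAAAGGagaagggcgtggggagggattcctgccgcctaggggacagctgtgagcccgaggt
Fermt2, chr14:45530216-45530315, minus strand: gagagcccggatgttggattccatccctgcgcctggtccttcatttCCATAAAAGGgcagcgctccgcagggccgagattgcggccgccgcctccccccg
The other member with a CArG box was Trip6, at its start. Srf itself was higher in the siKlf4 arrays, by log2 differences of 0.65 without and 0.62 with TGFβ (adjusted p = 0.00148 and 0.00158). Its coactivator gene Mrtfa was higher by 0.71 and 0.90 (adjusted p = 0.00105 and 1.9e-04). Mrtfb, the third of these factors measured, differed by 0.17 without TGFβ (adjusted p = 0.190) and was higher by 0.25 with it (adjusted p = 0.0427). After Lmcd1, the largest siKlf4 differences without TGFβ were those of Capg, Tns1, Actn1 and Pdlim7, and their promoters held no CArG box. Any link of the box or of these factors to the members' differences was not tested.

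Among the integrin-actin linkers, Vcl encodes vinculin, which joins talin to actin filaments. Its log2 values were 8.98 and 8.79 in siControl, 10.28 and 10.31 in siKlf4, and with TGFβ 9.52 and 9.46 in siControl and 10.90 and 10.92 in siKlf4. Both siKlf4 arrays lay above both siControl arrays under each condition, by 1.41 on the log2 scale without TGFβ (standard error 0.0865, adjusted p = 7.0e-06) and 1.42 with it (adjusted p = 3.9e-06), or 2.66-fold and 2.68-fold. Parvb encodes β-parvin, a partner of integrin-linked kinase at the plaque. Its values were 6.90 and 6.82 in siControl, 8.12 and 8.02 in siKlf4, and with TGFβ 6.74 and 6.72 in siControl and 7.82 and 7.92 in siKlf4. The siKlf4 arrays were higher by 1.21 without TGFβ (standard error 0.0818, adjusted p = 1.2e-05) and 1.14 with it (adjusted p = 1.0e-05), and TGFβ moved neither pair past the test. Lims2 encodes PINCH2, an adaptor bound to the same kinase. Its values were 6.51 and 6.55 in siControl, 7.70 and 7.84 in siKlf4, and with TGFβ 6.38 and 6.74 in siControl and 7.89 and 7.96 in siKlf4. The siKlf4 and siControl arrays did not overlap, with differences of 1.24 (standard error 0.118, adjusted p = 8.8e-05) and 1.37 (adjusted p = 3.0e-05).

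Tns1 encodes tensin 1, which binds integrin tails and actin. Its values were 6.53 and 6.77 in siControl, 8.72 and 8.89 in siKlf4, and with TGFβ 7.15 and 7.40 in siControl and 8.09 and 8.24 in siKlf4. The siKlf4 arrays were higher by 2.16 without TGFβ (standard error 0.121, adjusted p = 4.3e-06), or 4.46-fold, and by 0.89 with it (adjusted p = 5.2e-04), or 1.85-fold. The probe sets of Tns1 gave different values, as described with the interaction. Fermt2 encodes kindlin-2, which activates integrins together with talin. Its values were 8.20 and 8.10 in siControl, 8.73 and 8.74 in siKlf4, and with TGFβ 9.12 and 9.21 in siControl and 9.26 and 9.30 in siKlf4. The lowest pair was siControl without TGFβ, and the siKlf4 difference was 0.58 without TGFβ (standard error 0.0795, adjusted p = 7.0e-04) and 0.11 with it (adjusted p = 0.394). Of the other linkers, Tln1 and Tln2 (talins), Fermt1 (kindlin-1), Ilk (integrin-linked kinase) and Parva (α-parvin) were higher in both comparisons, by 0.54 to 0.77 without TGFβ and 0.33 to 1.35 with it. Parva with TGFβ had an adjusted p of 0.0132, and the call was lost without replicate 1 or 2 of siControl with TGFβ (0.0696, 0.0848) or of siKlf4 with TGFβ (0.0891, 0.0644). Lims1, which encodes PINCH1, was higher with TGFβ (0.35, adjusted p = 0.0257) but not without siControl with TGFβ replicate 2 (0.202) or siKlf4 with TGFβ replicate 1 (0.177) or 2 (0.0546). Nor was Lims1 with TGFβ called under ordinary analysis of variance (adjusted p = 0.0845). Tns3 passed neither test, with differences of 0.16 and 0.06.

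Among the kinases and adaptors, Zyx encodes zyxin, a LIM protein of adhesions and stress fibers. Its values were 9.09 and 8.96 in siControl, 10.29 and 10.38 in siKlf4, and with TGFβ 8.88 and 9.03 in siControl and 10.25 and 10.40 in siKlf4. TGFβ made little difference to either pair, and siKlf4 exceeded siControl by 1.31 (standard error 0.0960, adjusted p = 1.9e-05) and 1.37 (adjusted p = 8.5e-06), or 2.48-fold and 2.59-fold. Lpp encodes a close relative of zyxin. Its values were 9.08 and 9.05 in siControl, 10.08 and 9.87 in siKlf4, and with TGFβ 9.55 and 9.51 in siControl and 10.71 and 10.73 in siKlf4. Each treatment went with higher values, and the siKlf4 differences were 0.91 (standard error 0.0895, adjusted p = 1.1e-04) and 1.19 (adjusted p = 1.2e-05). The other 2 probe sets of Lpp gave 0.81 and 0.52 without TGFβ and 1.09 and 0.88 with it. For TGFβ against none they gave 0.45 and 0.02 in siControl and 0.74 and 0.37 in siKlf4. The dimmest probe set, with 0.02 and 0.37, passed neither TGFβ test (adjusted p = 0.963 and 0.102 from limma over all probe sets).

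Src encodes the tyrosine kinase that phosphorylates many plaque proteins. Its values were 8.51 and 8.41 in siControl, 9.38 and 9.47 in siKlf4, and with TGFβ 8.51 and 8.48 in siControl and 9.27 and 9.25 in siKlf4. The siKlf4 arrays were higher by 0.97 (standard error 0.0799, adjusted p = 3.8e-05) and 0.76 (adjusted p = 1.0e-04). Bcar1 encodes p130Cas, a docking protein that Src phosphorylates. Its values were 8.22 and 8.17 in siControl, 8.70 and 8.85 in siKlf4, and with TGFβ 8.32 and 8.31 in siControl and 8.73 and 8.80 in siKlf4. No arrays overlapped between siKlf4 and siControl, with differences of 0.58 (standard error 0.0828, adjusted p = 9.1e-04) and 0.45 (adjusted p = 0.00332). Pxn (paxillin), Git1 and Trip6 were also higher in both comparisons, by 0.32 to 0.49 without TGFβ and 0.32 to 0.53 with it. With ordinary analysis of variance, Pxn (adjusted p = 0.0681) and Trip6 (0.0601) were not called without TGFβ, nor Trip6 with it (0.134). Pxn without TGFβ (adjusted p = 0.0311) was not called without replicate 2 of siControl (0.136) or siKlf4 (0.148), or without replicate 1 or 2 of siControl with TGFβ (0.0556 each). Trip6 with TGFβ (adjusted p = 0.0474) was not called without any array of siControl (0.0566 each), of siControl with TGFβ (0.111, 0.229) or of siKlf4 with TGFβ (0.153, 0.191). Tgfb1i1, the paxillin relative Hic-5, was dim, with group means of 4.21 to 4.28 and no call.

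Among the cross-linkers, Actn1 encodes α-actinin-1, which bundles filaments in stress fibers and binds integrins. Its values were 9.21 and 8.99 in siControl, 10.94 and 11.01 in siKlf4, and with TGFβ 9.69 and 9.68 in siControl and 11.56 and 11.55 in siKlf4. The pairs did not overlap in any comparison, and siKlf4 was higher by 1.88 (standard error 0.0910, adjusted p = 2.0e-06) and 1.87 (adjusted p = 1.3e-06), or 3.68-fold and 3.66-fold. Flna encodes filamin A, which holds filaments in orthogonal networks. Its values were 11.14 and 11.16 in siControl, 12.05 and 12.04 in siKlf4, and with TGFβ 11.12 and 10.93 in siControl and 11.97 and 12.00 in siKlf4. The differences were 0.90 (standard error 0.0864, adjusted p = 9.5e-05) and 0.96 (adjusted p = 3.8e-05). Myh9 encodes the heavy chain of non-muscle myosin IIA, the motor of stress fibers. Its values were 10.97 and 10.97 in siControl, 12.00 and 11.99 in siKlf4, and with TGFβ 10.98 and 10.89 in siControl and 11.88 and 11.96 in siKlf4. It differed by 1.02 (standard error 0.0781, adjusted p = 2.5e-05) and 0.99 (adjusted p = 1.7e-05), and its second probe set by 0.68 and 0.73. Actn4, bright in all groups, had differences of 0.25 and 0.17 that did not pass (adjusted p = 0.0605 and 0.188). Flnc, Fscn1 and Myh10 were dim, at percentiles 34.7, 46.7 and 31.6, and were not called.

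Among the LIM proteins, Lmcd1 had the largest fitted difference of any member in both comparisons, followed by Capg. It encodes a LIM and cysteine-rich domain protein studied as a cofactor of transcription in muscle. Its values were 7.01 and 6.66 in siControl, 9.96 and 10.05 in siKlf4, and with TGFβ 6.91 and 7.19 in siControl and 10.57 and 10.62 in siKlf4. All siKlf4 arrays lay far above all siControl arrays, by 3.17 (standard error 0.131, adjusted p = 1.1e-06) and 3.55 (adjusted p = 4.5e-07), or 8.98-fold and 11.7-fold. Pdlim7 encodes enigma, a PDZ and LIM protein of stress fibers. Its values were 8.35 and 8.26 in siControl, 9.88 and 9.85 in siKlf4, and with TGFβ 8.55 and 8.63 in siControl and 10.16 and 10.18 in siKlf4. The differences were 1.56 (standard error 0.0778, adjusted p = 2.2e-06) and 1.58 (adjusted p = 1.4e-06), or 2.95-fold and 2.99-fold.

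Csrp1 encodes a cysteine and glycine-rich LIM protein that binds α-actinin and zyxin. Its values were 9.70 and 9.75 in siControl, 10.91 and 11.01 in siKlf4, and with TGFβ 10.07 and 10.05 in siControl and 11.22 and 11.30 in siKlf4. With siKlf4 it was higher by 1.23 (standard error 0.0797, adjusted p = 9.5e-06) and 1.20 (adjusted p = 6.5e-06). Pdlim5 encodes another PDZ and LIM protein that binds α-actinin. Its values were 9.47 and 9.58 in siControl, 10.45 and 10.50 in siKlf4, and with TGFβ 9.94 and 9.92 in siControl and 11.03 and 11.01 in siKlf4. The order of the pairs was the same as for Csrp1, and the siKlf4 differences were 0.95 (standard error 0.0782, adjusted p = 3.6e-05) and 1.09 (adjusted p = 1.0e-05). Lasp1, a LIM and SH3 protein that binds actin, ran the other way. Its values were 11.46 and 11.49 in siControl, 11.30 and 11.42 in siKlf4, and with TGFβ 11.19 and 11.19 in siControl and 10.91 and 10.96 in siKlf4. The siKlf4 difference was −0.11 without TGFβ (adjusted p = 0.428) and −0.25 with it (standard error 0.0791, adjusted p = 0.0479). The second call was lost with cyclic loess normalization (adjusted p = 0.0729) and without any array of siControl (0.0537 each), of siControl with TGFβ (0.185, 0.179) or of siKlf4 with TGFβ (0.224, 0.135). Pdlim1 was dim, at percentile 26.9, and passed neither test.

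Genes of filament nucleation and elongation moved in both directions. Diaph3 encodes a formin of the diaphanous family, which elongates unbranched filaments. Its values were 8.42 and 8.15 in siControl, 7.60 and 7.57 in siKlf4, and with TGFβ 8.10 and 8.06 in siControl and 7.03 and 6.86 in siKlf4. The siKlf4 arrays lay below, by −0.70 without TGFβ (standard error 0.105, adjusted p = 0.00126) and −1.13 with it (adjusted p = 4.6e-05), that is 1.62-fold and 2.19-fold lower. Enah encodes Mena, which delivers profilin-actin to growing filament ends. Its values were 8.44 and 8.36 in siControl, 9.06 and 9.11 in siKlf4, and with TGFβ 8.73 and 8.79 in siControl and 9.74 and 9.69 in siKlf4. It was higher with siKlf4 by 0.69 (standard error 0.0779, adjusted p = 2.4e-04) and 0.95 (adjusted p = 2.1e-05). Vasp encodes the founding member of the same family. Its values were 8.64 and 8.77 in siControl, 9.18 and 9.35 in siKlf4, and with TGFβ 8.88 and 8.89 in siControl and 9.41 and 9.42 in siKlf4. The differences were 0.56 (standard error 0.0882, adjusted p = 0.00173) and 0.54 (adjusted p = 0.00170).

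Evl, the third gene of the Ena/VASP family, had values of 8.40 and 8.43 in siControl, 8.79 and 8.68 in siKlf4, and with TGFβ 7.92 and 8.10 in siControl and 7.92 and 8.08 in siKlf4. The TGFβ arrays were the lowest whichever siRNA was used. The siKlf4 difference of 0.32 without TGFβ (standard error 0.0959, adjusted p = 0.0471) was lost when any 1 of the 8 arrays was left out, with adjusted p from 0.0565 to 0.179, and with array weights (0.124). This difference of Evl was not called under ordinary analysis of variance either (adjusted p = 0.12). Arpc5 encodes a subunit of the Arp2/3 complex, which starts branched filaments. Its values were 10.33 and 10.26 in siControl, 10.66 and 10.49 in siKlf4, and with TGFβ 10.07 and 10.15 in siControl and 10.60 and 10.68 in siKlf4. It was higher with siKlf4 in the presence of TGFβ by 0.53 (standard error 0.0881, adjusted p = 0.00173), and the difference without TGFβ was 0.28 (adjusted p = 0.0550). Wasf2 encodes WAVE2, which activates the Arp2/3 complex at the leading edge. Its values were 8.03 and 8.09 in siControl, 8.03 and 8.12 in siKlf4, and with TGFβ 8.82 and 8.91 in siControl and 8.89 and 8.88 in siKlf4. The siKlf4 and siControl arrays overlapped under both conditions, with differences of 0.02 (95% interval −0.16 to 0.20) in each. Cttn (cortactin) was higher by 0.37 and 0.29, the latter (adjusted p = 0.0244) not without replicate 1 or 2 of siControl with TGFβ (0.0508, 0.186) or of siKlf4 with TGFβ (0.0899, 0.144). Arpc2 and Diaph1 passed neither siKlf4 test.

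In the gelsolin family, Capg encodes a protein that caps the barbed ends of filaments. Its values were 5.57 and 5.33 in siControl, 8.45 and 8.58 in siKlf4, and with TGFβ 5.01 and 5.28 in siControl and 7.95 and 7.96 in siKlf4. The siKlf4 arrays were higher by 3.07 (standard error 0.116, adjusted p = 6.9e-07) and 2.81 (adjusted p = 6.8e-07), or 8.39-fold and 7.0-fold. Whether the siControl values of Capg lie above background was not tested, so that these folds are estimates against dim values. Gsn encodes gelsolin, which severs and caps filaments. Its values were 8.83 and 8.86 in siControl, 10.25 and 10.25 in siKlf4, and with TGFβ 8.86 and 8.89 in siControl and 10.48 and 10.55 in siKlf4. The replicates nearly coincided, and the differences were 1.41 (standard error 0.0755, adjusted p = 3.4e-06) and 1.64 (adjusted p = 9.8e-07). Svil encodes supervillin, a membrane-bound member of the family that binds actin and myosin II. Its values were 7.01 and 6.90 in siControl, 7.76 and 7.72 in siKlf4, and with TGFβ 7.35 and 7.29 in siControl and 7.82 and 7.76 in siKlf4. It was higher by 0.79 (standard error 0.0801, adjusted p = 1.3e-04) and 0.47 (adjusted p = 0.00210). Cfl1, Cfl2 (cofilins) and Pfn1 (profilin) passed neither siKlf4 test, with differences from −0.16 to 0.22.

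The 3 membrane linkers went in different directions. Ezr encodes ezrin, the form that predominates in microvilli of epithelia. Its values were 11.23 and 11.21 in siControl, 10.37 and 10.28 in siKlf4, and with TGFβ 10.97 and 10.88 in siControl and 9.83 and 10.05 in siKlf4. The siKlf4 arrays lay below, by −0.90 (standard error 0.0943, adjusted p = 1.6e-04) and −0.98 (adjusted p = 5.9e-05), that is 1.86-fold and 1.98-fold lower. Msn encodes moesin, which is widespread in mesenchymal and blood cells. Its values were 10.31 and 10.22 in siControl, 11.57 and 11.56 in siKlf4, and with TGFβ 10.60 and 10.60 in siControl and 11.74 and 11.72 in siKlf4. It was higher by 1.30 (standard error 0.0757, adjusted p = 5.4e-06) and 1.13 (adjusted p = 6.9e-06), or 2.46-fold and 2.19-fold. Rdx, which encodes radixin, had differences of −0.01 (95% interval −0.19 to 0.16) and −0.10 (−0.27 to 0.08).

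The study's methods do not say how far probe sets of related genes hybridize with each other's transcripts, and this was not tested. Among 24 pairs of related members, the 95% intervals of the siKlf4 differences lay apart for 15 pairs without TGFβ and 20 with it. These intervals are not adjusted over genes, and their separation is a description and not a test. Actn1 and Actn4, Lims2 and Lims1, Myh9 and Myh10, and Flna and Flnc were such pairs in both comparisons, with the first-named gene higher in siKlf4 each time by a larger difference. Myh10 and Flnc were dim, at percentiles 31.6 and 34.7, and whether their values lie above background was not tested. For Diaph3 and Diaph1, the differences were −0.70 and 0.02 without TGFβ and −1.13 and 0.22 with it. The kindlins were apart with TGFβ alone, where Fermt1 differed by 1.35 (adjusted p = 7.1e-06) and Fermt2 by 0.11. Fermt1 had values of 9.11 and 8.88 in siControl, 9.77 and 9.76 in siKlf4, and with TGFβ 8.69 and 8.75 in siControl and 10.06 and 10.08 in siKlf4. In the siControl arrays that received TGFβ, Fermt2 lay above its values without TGFβ and Fermt1 below them, the latter by −0.28, which did not pass the test.

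**Figure D3:**
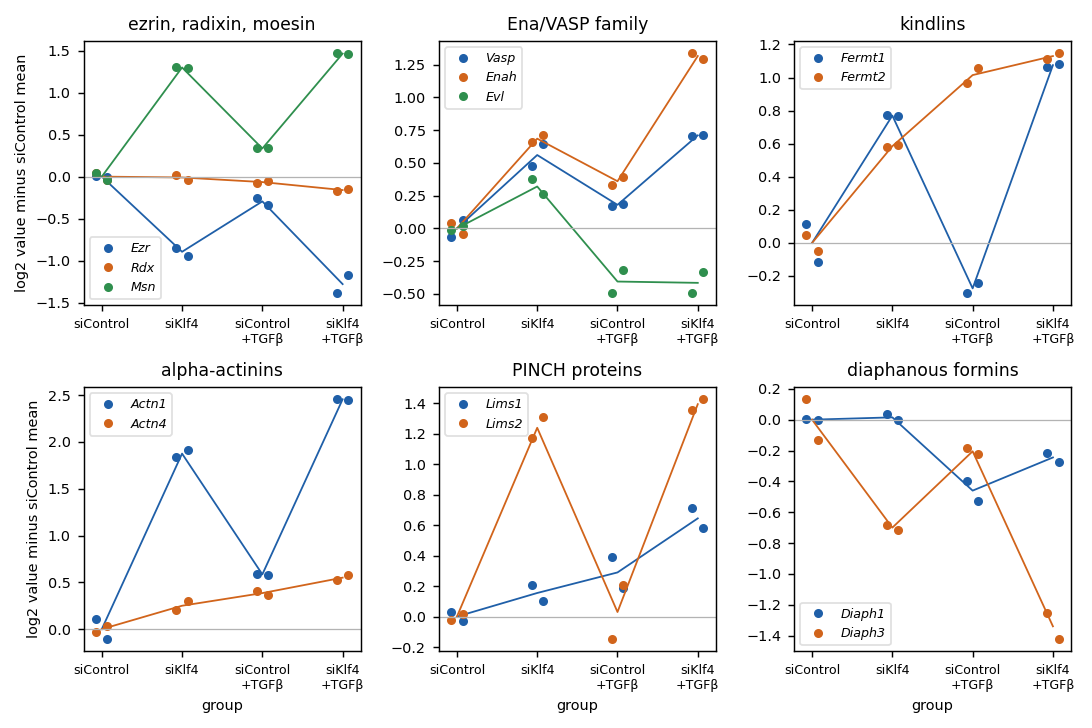
Log2 value minus the siControl mean for members of 6 families of related genes in the 4 groups. Points are single arrays and lines join group means of 2 arrays. Msn rises and Ezr falls in siKlf4 while Rdx stays near 0, Evl falls with TGFβ while Enah rises, and Fermt1 and Fermt2 part in siControl with TGFβ.

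TGFβ for 2 days went with fewer and smaller differences. In siControl, 13 members were higher and 3 lower, beside 5.81% and 6.65% of all genes, and the median log2 difference was 0.03. In siKlf4, 12 were higher and 9 lower, beside 6.01% and 6.87% of all genes, with a median of 0.00. In siControl, both TGFβ arrays lay above both others for 20 members and below for 18, beside 27.3% and 24.3% of all genes, and in siKlf4 for 20 and 21, beside 22.8% and 26.5%. When the dimmest 30% were removed, 5 members were lower in siControl, beside 10.9% of the genes then tested, and when the dimmest 50% were removed it was 8, beside 18.5%. For the other TGFβ counts, the shares among bright genes are not given here. Because most members are bright, an excess over the shares of all genes cannot be read from those counts. Of the 20 markers of other cell types, Cd68 was lower in siControl (−1.30) and in siKlf4 (−1.09), and Csf1r (0.84) and Acta1 (1.01) were higher in siKlf4. Of the epithelial markers, Cdh1 was higher in siKlf4 (0.67, adjusted p = 6.1e-04), and none was called in siControl. Their part in the members' TGFβ differences was not tested. These comparisons share no arrays with each other, but each shares its arrays with the siKlf4 comparisons, so that values are set side by side only. Called the same way in both were 10 members higher (Vcl, Fermt2, Lpp, Actn1, Actn4, Pdlim5, Pdlim7, Csrp1, Wasf2 and Enah) and 2 lower (Lasp1 and Evl). 27 were called in neither. 7 members (Vcl, Lpp, Actn1, Pdlim5, Pdlim7, Csrp1 and Enah) were called higher in both TGFβ and both siKlf4 comparisons. The shares of all genes called in several comparisons are not given here, so that these joint counts describe the members only.

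The largest TGFβ difference in siControl was that of Fermt2, at 1.01 (standard error 0.0795, adjusted p = 1.6e-04), with 0.54 in siKlf4 (adjusted p = 0.00211). Wasf2, which siKlf4 did not move past the test, was higher with TGFβ by 0.81 in both siControl (standard error 0.0794, adjusted p = 4.2e-04) and siKlf4 (adjusted p = 2.7e-04). Vcl differed by 0.61 and 0.62 (adjusted p = 0.00229 and 0.00167) and Actn1 by 0.59 and 0.58 (0.00352 and 0.00316). The calls of these 4 genes held when any 1 array was left out. Enah was higher by 0.36 and 0.63 (adjusted p = 0.0166 and 8.7e-04), whereas its relative Evl was lower by −0.40 and −0.73 (0.0256 and 0.00116). Lpp, by its brightest probe set, was higher by 0.46 and 0.75 (adjusted p = 0.01 and 6.9e-04), and Pdlim5 by 0.41 and 0.54 (0.00947 and 0.00196).

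Of the 16 calls of TGFβ in siControl, 12 were lost without some array, and of the 21 in siKlf4 also 12. In siControl, Enah was not called without siControl replicate 2 (adjusted p = 0.0688) or siControl with TGFβ replicate 1 (0.0794) or 2 (0.125). Lpp was not called without siControl with TGFβ replicate 1 (0.0795) or 2 (0.0598), and Pdlim5 not without these (0.0753, 0.0663) or siControl replicate 1 (0.0553). Evl in siControl was not called without any array of siControl (0.0801, 0.0861) or siControl with TGFβ (0.196, 0.0520). In siKlf4, the calls of Enah, Evl, Lpp and Pdlim5 held when any 1 array was left out. Ordinary analysis of variance did not call Evl (adjusted p = 0.0984) or Lpp (0.0524) in siControl.

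Actn4 was higher by 0.38 in siControl (adjusted p = 0.0140) and 0.30 in siKlf4 (0.0379). The first call was lost without siControl replicate 1 (0.0689) or either array of siControl with TGFβ (0.108, 0.0734), and the second without either array of siControl with TGFβ (0.0725 each), siKlf4 (0.142, 0.0579) or siKlf4 with TGFβ (0.131, 0.219). Csrp1 was higher by 0.34 and 0.30 (adjusted p = 0.0252 and 0.0379). In siControl its call was lost without any array of the compared groups (0.0528 to 0.149), and in siKlf4 without any of these (0.0608 to 0.232) or of siControl with TGFβ (0.0740 each). Pdlim7 was higher by 0.29 and 0.30 (adjusted p = 0.0446 and 0.0327), and the calls were lost without any 1 of the 8 arrays in siControl (0.0509 to 0.256) and, in siKlf4, without any array but those of siControl (0.0619 to 0.182). Lasp1 was lower by −0.29 and −0.42 (adjusted p = 0.0470 and 0.00754). Its call in siControl was lost without any array of the compared groups (0.116 to 0.203) or of siKlf4 with TGFβ (0.0855 each), and in siKlf4 without siKlf4 with TGFβ replicate 1 (0.0707).

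Diaph1, a formin, was lower with TGFβ in siControl (−0.46, adjusted p = 0.00612), not so without siControl with TGFβ replicate 2 (0.0685), and by −0.26 in siKlf4 (0.0698). In siKlf4 alone, Lims1 was called higher (0.49, adjusted p = 0.00988), but not without siKlf4 replicate 2 (0.0639) or siKlf4 with TGFβ replicate 1 (0.0925). Also in siKlf4 alone, Trip6 (−0.36, adjusted p = 0.0483), Cttn (−0.34, 0.0216) and Pfn1 (−0.29, 0.0432) were called lower. The calls of Lims1 and Trip6 were lost under ordinary analysis of variance (adjusted p = 0.0644 and 0.151). The call of Cttn was lost without any array of the compared groups (0.0579 to 0.142). That of Pfn1 was lost without any of these (0.103 to 0.198) or of siControl with TGFβ (0.0830 each). That of Trip6 was lost without any array other than siKlf4 replicate 1 (0.0579 to 0.232).

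Lower TGFβ values in siKlf4 were also called for Diaph3 (−0.65, adjusted p = 0.00361), Capg (−0.56, 0.0122) and Ezr (−0.39, 0.0272), and in siControl their differences were −0.21, −0.30 and −0.30 and did not pass. Under ordinary analysis of variance, the calls of Diaph3 (adjusted p = 0.0519), Capg (0.102), Ezr (0.0956) and Lmcd1, given below (0.134), were lost. The call of Diaph3 held without any 1 array. That of Capg was lost without siKlf4 replicate 2 (adjusted p = 0.0785) or siKlf4 with TGFβ replicate 1 (0.0793) or 2 (0.0761), and that of Ezr without siKlf4 replicate 1 (0.112) or 2 (0.0608) or siKlf4 with TGFβ replicate 1 (0.210). Lmcd1 was higher with TGFβ in siKlf4 (0.59, adjusted p = 0.0172) but not without either siKlf4 array (0.0809, 0.0579) or either siKlf4 array with TGFβ (0.0811, 0.115), and in siControl it differed by 0.21. Msn and Svil were higher with TGFβ in siControl, by 0.34 and 0.37 (adjusted p = 0.0202 and 0.0172), and both calls were lost without siControl replicate 2 (0.0799 and 0.0750) or siControl with TGFβ replicate 1 (0.119 and 0.127) or 2 (0.119 and 0.0811). Whether a TGFβ difference differs between siControl and siKlf4 is what the interaction tests.

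**Figure D4:**
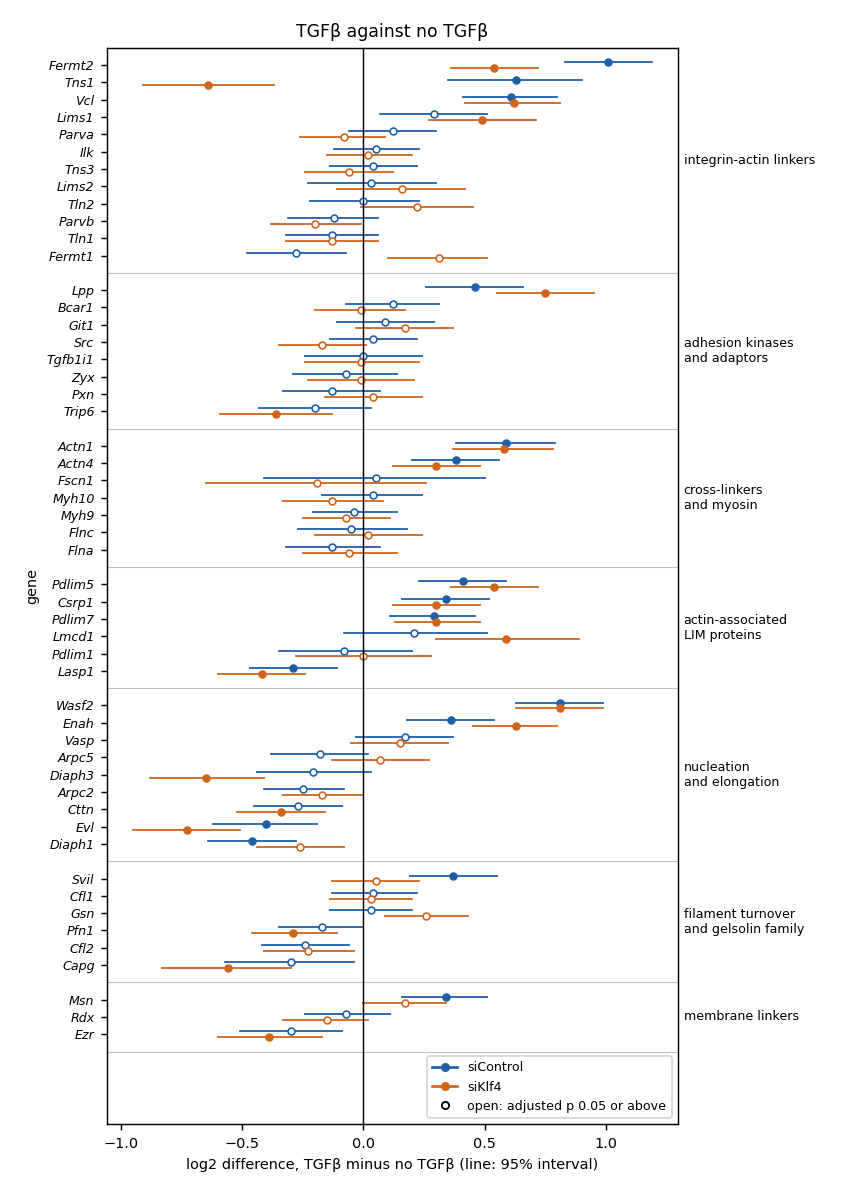
Log2 difference of TGFβ minus no TGFβ for the 51 members by class, in siControl (blue) and in siKlf4 (orange). Points are limma estimates from 2 arrays a group, lines are 95% intervals, and open points did not pass an adjusted p of 0.05. Wasf2 has the same difference in both, Fermt2 the largest in siControl, and Tns1 lies right of 0 in siControl and left of 0 in siKlf4.

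The interaction, the siKlf4 difference with TGFβ minus that without, was called for 1 member, Tns1, as lower. Over all genes, 0.547% were called as higher and 0.978% as lower. An unadjusted p under 0.05 was found for 8 of the 51 members and for 2403 of the 19937 genes. For Tns1 it was −1.27 (standard error 0.171, adjusted p = 0.0128): TGFβ went with a value higher by 0.63 in siControl (adjusted p = 0.00983) and lower by −0.64 in siKlf4 (adjusted p = 0.00810). The first of these calls was lost with the mean of all probe sets (0.40, adjusted p = 0.0561), under ordinary analysis of variance (0.0968), without siControl replicate 1 (0.0641) or siControl with TGFβ replicate 2 (0.0870), and the second under ordinary analysis of variance (0.0894), without siKlf4 replicate 2 (0.0580) or siKlf4 with TGFβ replicate 1 (0.0754). The interaction was not called without siControl with TGFβ replicate 2 (adjusted p = 0.0679) or siKlf4 with TGFβ replicate 1 (0.0692) or 2 (0.0572). The other members under an unadjusted 0.05 were Fermt1 (0.58, adjusted p = 0.0720), Fermt2 (−0.47, 0.0912), Diaph3 (−0.44, 0.247), Svil (−0.32, 0.278), Evl (−0.33, 0.377), Enah (0.26, 0.381) and Lpp (0.29, 0.411). Quantile normalization brought both kindlins past the threshold, with 0.56 for Fermt1 (adjusted p = 0.0394) and −0.50 for Fermt2 (adjusted p = 0.0372). Fermt1 was also called with the dimmest 30% of genes left out (adjusted p = 0.0499), where 1.05% of genes were called as higher. With the dimmest 50% left out, 2.46% were called as higher, Fermt1 among them (0.0232), and 3.95% as lower, Fermt2 among them (0.0259).

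Tns1 has 6 probe sets with its symbol alone, and they did not move alike. The interaction was negative in all 6, from −1.35 to −0.65, and passed an adjusted p of 0.05 over all probe sets in 3. The siKlf4 difference without TGFβ was positive in all 6, from 0.40 to 2.93. With TGFβ it was positive in 4 and negative in 2, from −0.53 (adjusted p = 0.00399) to 2.01 (adjusted p = 1.4e-06). The probe set with −0.53 had values of 7.17 and 7.29 in siControl, 7.94 and 8.15 in siKlf4, and with TGFβ 8.08 and 8.03 in siControl and 7.46 and 7.58 in siKlf4. The probe set with 2.01 had values of 6.44 and 6.36 in siControl, 9.29 and 9.37 in siKlf4, and with TGFβ 6.45 and 6.45 in siControl and 8.40 and 8.54 in siKlf4. The direction of the Tns1 difference with TGFβ thus depends on the probe set, and where the probe sets lie in the transcript is not given in the sources used here.

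**Figure D5:**
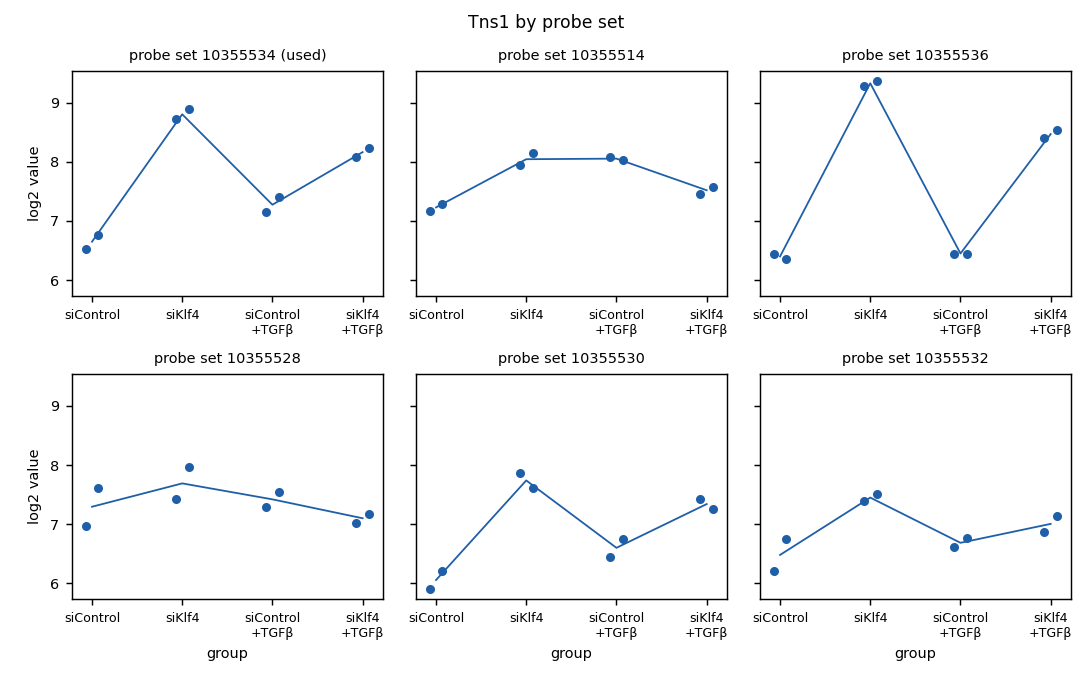
Log2 values of the 6 Tns1 probe sets in the 4 groups, 1 panel a probe set, with points for single arrays and lines through group means of 2 arrays. The probe set used for the gene is at the upper left. The siKlf4 mean is the highest or level with the highest in each panel, and the order of the TGFβ groups differs between panels.

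Beyond the members, further genes of adhesion and actin were measured from 2 lists. For siKlf4, their counts stand beside 9.98% of all genes higher and 9.71% lower without TGFβ and 12.3% and 11.9% with it. Among the brighter genes described above, the shares were 22.4% and 22.3% without TGFβ and 27.3% and 24.3% with it. Most genes of the lists are bright too, and the lists were not compared with genes of like brightness. Of 25 other adhesion adaptors, 11 were higher and 1 lower in siKlf4 without TGFβ, and 11 and 2 with it. Of 36 other genes of actin assembly and turnover, 12 were higher and 6 lower without TGFβ, and 13 and 4 with it. With TGFβ against none in siControl, 4 of the adaptors were higher and 1 lower, and 6 of the actin genes were higher and 4 lower, beside 5.81% and 6.65% of all genes. In siKlf4, the counts were 4 and 2 for the adaptors and 5 and 5 for the actin genes, beside 6.01% and 6.87%. As for the members, an excess over the shares of all genes cannot be read from these TGFβ counts. The largest fall in these lists without TGFβ was that of Csrp2, a relative of Csrp1, at −0.95 (adjusted p = 1.0e-04), with −0.48 in the presence of TGFβ. The largest fall with TGFβ was that of Anln, which encodes anillin of the cytokinetic ring, at −1.60 (adjusted p = 2.7e-06), with −0.78 in its absence.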

How the data were processed

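Raw arrays were normalized by the authors with the Robust Multi-Array (RMA) method, for which the submitters' notes on processing list oligo 1.14.0. The log2 values were used as deposited by the authors. That their scale is log2 was read from their range, and the background settings are not given in the sources used here. Of 34760 probe sets, the platform annotation gives 21640 a single symbol and 1321 several, and lacks 11799. RefSeq, searched by Entrez ID, held 21553 of the first kind and changed 0 symbols. Where a gene had several probe sets (954 genes), the brightest was kept.

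Groups were compared by limma 3.58.1 in R 4.3.3 (lmFit with 1 mean per group over 8 arrays, then eBayes), with 4 residual and 4.93 prior degrees of freedom and Benjamini-Hochberg adjustment over 19937 genes. 0 pairs of arrays were identical. The number of arrays limits the precision.

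The members and lists were chosen with earlier results of these data known. Values per array are given for up to 4 called members per class with the largest siKlf4 differences, those called against the majority, those called in the interaction and the 6 largest TGFβ differences. Fermt1 and the Tns1 probe sets were added after their values were seen. Of the other lists, the largest falls were named, and 1 list with its genes is not reported here. Alternatives were the replicate block, a fit of the 4 arrays alone, the trend and robust options of eBayes, ordinary analysis of variance, array weights, quantile and cyclic loess normalization, dim genes left out, averaged probe sets, stricter thresholds and leaving out each array, where a lone array was assumed to vary like the other groups. Motifs and promoters came from RefSeq tables of GRCm38.p6.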

Additional observations from a re-analysis of the deposited data

Results flagged for a closer look

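For Tns1, the siKlf4 difference with TGFβ differed from that without it, by an interaction of −1.27 on the log2 scale (adjusted p = 0.0128 from limma), which was not called under ordinary analysis of variance (adjusted p = 0.168) or without 3 of the 8 arrays. For Anln, which encodes anillin, the interaction was −0.82 (adjusted p = 0.0200 from limma). It was not called under ordinary analysis of variance (adjusted p = 0.142), without siControl replicate 2 (0.0573), without siKlf4 replicate 1 (0.0530), or without any array of siControl with TGFβ (0.105, 0.0877) or siKlf4 with TGFβ (0.0997, 0.102).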

How the results depend on the processing

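Over the alternatives other than stricter thresholds and single probe sets, the differences of the named genes were computed 2937 times, of which 2791 kept direction and side of the threshold, 121 no longer passed, 25 newly passed and 0 reversed a call. All alternatives refit the same arrays, and results that were not called and stayed so are among the 2791. That total therefore does not measure how firm the calls are. Single probe sets reversed a direction: Tns1 with TGFβ was −0.53 and −0.32 in siKlf4 by 2 of its probe sets. The siKlf4 counts stayed within 1.5 times under each alternative. With each array left out in turn, 30 to 31 members were higher without TGFβ, and 28 to 32 higher and 2 to 3 lower with it. The TGFβ counts depended on single arrays: 4 to 12 higher and 0 to 3 lower in siControl, 7 to 13 higher and 2 to 8 lower in siKlf4. The interaction called 0 to 1 members as lower, and the one-way test called 27 to 36 members.

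Counts of TGFβ in siControl changed at an adjusted p under 0.01 (6 higher, 1 lower), with a 1.5-fold minimum (5 higher, 0 lower), and for members lower with trend and robust options (9), quantile normalization (5), the dimmest 30% left out (5) and the dimmest 50% left out (8). In siKlf4, members lower were 5 under ordinary analysis of variance, 4 under 0.01 and 3 with the 1.5-fold minimum, which left 5 higher. In the interaction, 1 member (Fermt1) was higher with trend and robust options, quantile or cyclic loess normalization, or the dimmest 30% or 50% left out. 2 were lower with trend and robust options, both normalizations and the dimmest 50% left out, and 0 under ordinary analysis of variance or 0.01. The one-way test called 29 members under 0.01. The causes were not tested.

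Replicate numbers are shared between groups, but deviations of same-numbered arrays correlated by 0.38 for siControl and siKlf4 and by −0.05 to 0.04 for the other pairs of groups. The numbers were not taken to pair the arrays. A pairing within the untreated groups alone was not tested, and the replicate block fits a common offset over all groups. With the replicate block, 32 members were higher and 2 lower without TGFβ, 32 and 3 with it, 13 and 3 for TGFβ in siControl, 12 and 8 in siKlf4, 0 and 1 in the interaction, and 38 in the one-way test. The dimmest 50% filter and the probe sets were chosen after seeing the data. Signal over background was not used here, and dim genes were judged by their mean value.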
